A study of Mus musculus with 2 samples.

Results

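The mitochondrial beta-oxidation enzymes are the 10 mouse genes whose products carry out the 4 repeated reactions that shorten an activated fatty acid inside mitochondria, together with an isomerase that prepares unsaturated chains for them. They were chosen by name, and the probes were found through the RefSeq accession printed for each spot. All 10 genes were matched, by 12 of the 56596 probes of the array, among 23458 genes that could be named. Every member was well above background on both arrays, so none was lost to a filter on dim spots, and no spot of a member was saturated or flagged as an outlier.

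RNA was compared between a fast and a slow pool of single muscle fibres, each hybridised to 1 array of a 1-colour Cy3 design, after labelling of 0.1 µg of total RNA. Both pools came from the same 8 male mice, 6 to 8 weeks old, heterozygous for a GFP-Myh7 allele (G/+) that makes fibres with slow myosin fluoresce. The fast pool held 4447 fibres without GFP from the extensor digitorum longus (EDL), and the slow pool 1659 GFP-positive fibres from the soleus. The labels disagree on the muscle of the slow pool: the tissue entry gives EDL, whereas the source entry and the treatment text give soleus, which was taken here. Fibre type and muscle of origin therefore cannot be told apart, and all mice carried the reporter allele. With 1 array per pool there was no replicate, and no gene could be tested between the pools. The error given for a signal or a difference is the scanner software's error of the spot. For the members it rose in step with the signal, and for their differences it ran only from 0.204028 to 0.204046. Comparisons with it or with the combined error therefore use a nearly fixed margin, not a spread measured for each gene.

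Beta-oxidation removes an acetyl-CoA unit from a fatty acyl-CoA in each turn of a dehydrogenation, a hydration, another dehydrogenation and a thiolytic cleavage. Enzymes bound to the inner mitochondrial membrane act on long chains, and soluble matrix enzymes take over as the chain becomes shorter. Slow and oxidative fibres are known for burning fatty acids during sustained activity, whereas fast glycolytic fibres rely more on glucose and glycogen. Many of the genes are known targets of PPAR and ERR nuclear receptors.

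The fibre markers went with the labels, although the slow pool also gave signal for fast-fibre genes. Myh7, the slow myosin heavy chain whose tagged allele guided the picking, had processed signals of 1094 (fast) and 316863 (slow). Myh4, the heavy chain of the fastest fibres, had signals of 160781 and 57.9. Of 8 fibre markers, 3 exceeded 2-fold toward the slow pool and 5 toward the fast pool. Some fast-fibre markers, named after their values were seen, stayed bright in the slow pool. Myh2 had signals of 36999 in fast and 11054 in slow fibres, and Tnni2 303991 and 11294. Myh1 had 77520 and 725. The mix of fibre types within each pool was not tested. Of 59305 spots, 52.3% on the fast and 50.9% on the slow array passed the scanner software's test for being well above background. Precision is limited by having a single array per pool. The 75th percentile of the probe signals, to which each array was scaled, was 121 on the fast and 128 on the slow array. Differences are slow minus fast on the log2 scale after that scaling. For 181 probes printed repeatedly, the SD of this difference between spots had a median of 0.05, while the software error of a member's difference was 0.20.

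Most of the enzymes were higher in the slow pool. The 3 lowest were all enzymes of medium and short chains, but chain length did not divide the set, since Acadm and Acaa2 had differences like those of the long-chain genes. Of the 10 members, 7 exceeded 2-fold toward the slow pool, 0 toward the fast pool, and 3 lay within 2-fold. The background was 9.75% of the 12855 genes measured on both arrays toward the slow pool and 12.3% toward the fast pool. The median difference of the members was 1.41, or 2.66-fold, beside 0.08 over all genes measured on both arrays. The 4 long-chain genes Acadvl, Acadl, Hadha and Hadhb lay between 1.25 and 1.67, with a median of 1.60. The 5 genes for medium and short chains ran from -0.49 to 1.64, with a median of 0.85. Within them Acadm and Acaa2 had a median of 1.61, and Acads, Echs1 and Hadh 0.69. Since the genes were chosen with earlier results of these arrays known, these counts describe the members and do not test them. In pooled fibres, fewer cells of a type and less RNA per cell cannot be told apart.

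**Figure D1:**
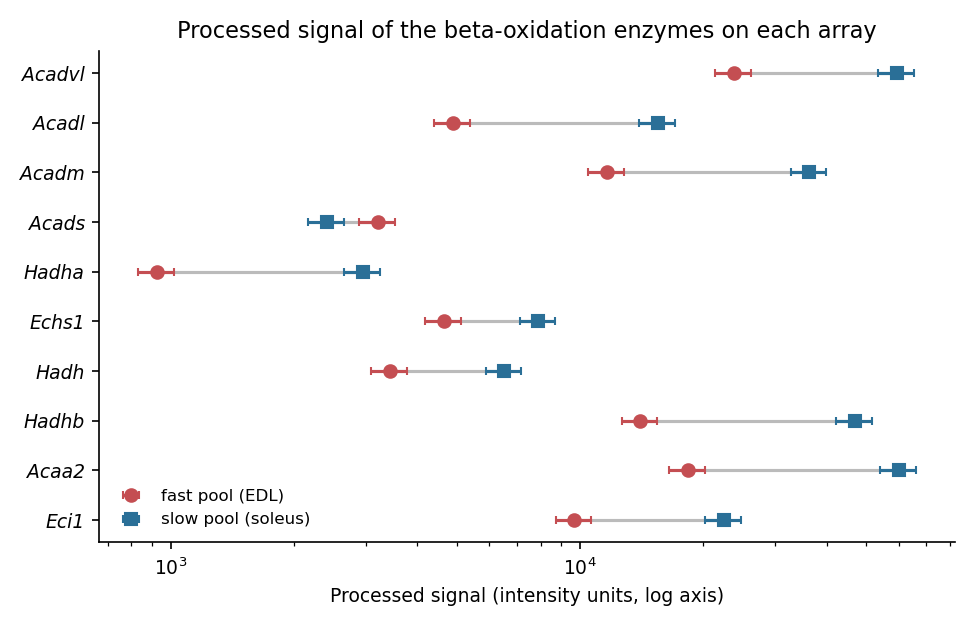
Processed signal on each array for the chosen probe of each enzyme (intensity units, log axis); circles are the fast pool, squares the slow pool, and bars the software error of the spot. For 9 of the 10 genes the slow signal is the higher, and for Acads the fast signal of 3201 exceeds the slow signal of 2400.

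The acyl-CoA dehydrogenases start each turn by introducing a double bond, and each prefers a range of chain lengths. Acadvl (NM_017366), the very long-chain enzyme of the inner membrane, had a processed signal of 23731 ± 2373 (software error) in fast and 59387 ± 5939 in slow fibres. The slow signal was the higher, and the scaled difference was 1.25 ± 0.20, or 2.38-fold. Acadl (NM_007381), the long-chain enzyme of the matrix, gave 4880 ± 488 in fast and 15466 ± 1547 in slow fibres. Its slow signal was again the higher, by 3.01-fold (a log2 difference of 1.59). Acadm (NM_007382), the medium-chain enzyme, gave 11614 ± 1161 in fast and 36345 ± 3634 in slow fibres. This was a 2.98-fold difference (1.57 on the log2 scale), close to that of Acadl.

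Acads (NM_007383), the short-chain enzyme that acts on butyryl-CoA, was the member that went the other way. Its signal was 3201 ± 320 in fast and 2400 ± 240 in slow fibres. The fast signal was the higher, by 1.40-fold after scaling, with a difference of -0.49 ± 0.20. Of the genes measured on both arrays, 23.1% had a value lower than this. Relative to Acads, the slow-to-fast ratio was 4.23 times larger for Acadl, 4.17 times larger for Acadm and 3.34 times larger for Acadvl. On the log2 scale these gaps were 2.08, 2.06 and 1.74, each with a combined software error of 0.29. Such a ratio shows unequal differences within the family, not that any of the genes was at the same amount in both pools. The gap between Acadvl and Acadl was -0.34, little more than its combined error.

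The start regions of these 4 genes are shown because Acadvl, Acadl and Acadm exceeded 2-fold toward the slow pool and Acads was higher in the fast pool. Each line gives the 250 bases before the gene's start, 5′ to 3′ on the gene's strand, from RefSeq with build GRCm38.p6. Capitals mark AGGTCA, the hexamer that nuclear receptors bind, or its complement TGACCT, and the GC box GGGCGG or its complement CCGCCC.
Acadvl, chr11:70015429-70015678, minus strand: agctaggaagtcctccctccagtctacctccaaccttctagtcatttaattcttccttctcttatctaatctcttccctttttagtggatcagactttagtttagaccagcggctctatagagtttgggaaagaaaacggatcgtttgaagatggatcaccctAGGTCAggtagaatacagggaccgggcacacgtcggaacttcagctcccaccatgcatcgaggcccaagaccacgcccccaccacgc
Acadl, chr1:66863310-66863559, minus strand: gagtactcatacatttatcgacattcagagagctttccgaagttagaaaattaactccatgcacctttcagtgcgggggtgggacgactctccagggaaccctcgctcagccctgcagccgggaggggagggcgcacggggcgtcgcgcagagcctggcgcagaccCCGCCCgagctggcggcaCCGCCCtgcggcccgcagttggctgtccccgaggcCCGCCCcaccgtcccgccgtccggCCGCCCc
Acadm, chr3:153944644-153944893, minus strand: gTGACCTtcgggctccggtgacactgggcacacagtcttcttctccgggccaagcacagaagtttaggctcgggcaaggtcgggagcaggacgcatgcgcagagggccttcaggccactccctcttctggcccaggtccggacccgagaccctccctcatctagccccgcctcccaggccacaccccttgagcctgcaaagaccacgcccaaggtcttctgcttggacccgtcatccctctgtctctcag
Acads, chr5:115119347-115119596, minus strand: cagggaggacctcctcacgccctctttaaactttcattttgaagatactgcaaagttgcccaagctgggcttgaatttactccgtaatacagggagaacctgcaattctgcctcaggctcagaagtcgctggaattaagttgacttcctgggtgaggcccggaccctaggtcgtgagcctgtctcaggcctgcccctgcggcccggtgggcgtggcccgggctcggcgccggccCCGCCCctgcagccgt

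Of these windows, Acadvl and Acadm held an AGGTCA hexamer, Acadl held 4 GC boxes and Acads 1. The hexamer of Acadvl lay at -87 to -82 from the start, on the strand of the gene, and that of Acadm at -249 to -244 from the start, on the opposite strand. Over the 9 members with an entry in the promoter table, AGGTCA was found on either strand in 3 (Acadvl, Acadm and Echs1), against 14.0% of 32851 such windows in the table. GGGCGG was found in 7 of 9, against 32.7%; the windows of Hadha and Hadhb overlap by 228 bases and share 1 of these boxes, so they are not separate cases. CCAAT was found in 1 of 9 (Hadh), against 33.8%. TNAAGGTCA, an ERR element that contains the hexamer, was found in 0 of 9, against 1.14%. The direct repeat bound by PPAR, a pair of such hexamers with 1 base of any kind between them, was likewise found in 0 of 9, against 0.0335%. The GC content of the 9 windows ran from 49.6% to 68.0%, beside a median of 52.4% over all windows. A match is a string of letters and not a binding site, and these windows hold neither introns nor distant elements.

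The trifunctional protein carries long chains through the remaining 3 reactions on the inner membrane. Its alpha subunit, encoded by Hadha, holds the hydratase and the 3-hydroxyacyl-CoA dehydrogenase, and its beta subunit, encoded by Hadhb, the thiolase. Hadha (NM_178878) had a signal of 923 ± 92.4 in fast and 2944 ± 294 in slow fibres. It was 3.03-fold higher in the slow pool, with a log2 difference of 1.60. Hadhb (NM_001289798) had a signal of 14036 ± 1404 in fast and 46977 ± 4698 in slow fibres. It was 3.18-fold higher in slow fibres, with a log2 difference of 1.67 that was the largest among the members. The other Hadhb probe gave 1847 ± 185 and 7402 ± 740, a difference of 1.93. By the chosen probes the subunits differed from each other by -0.07 (Hadha minus Hadhb), within the combined error of 0.29. They differed by more than that error when the other Hadhb probe was taken. Over all 15 settings of the processing, none of which used that probe alone, the gap between the genes ran from -0.29 to -0.07.

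Hadha and Hadhb also share a position, which is why the interval between them is shown. Their starts lie head to head on chromosome 5 with 272 bases between them in RefSeq build GRCm38.p6, and the 250 bases before the 2 starts overlap by 228. The sequence below is read on the strand of Hadhb and ends just before its start, with GGGCGG in capitals.
Hadhb, chr5:30155003-30155252, plus strand: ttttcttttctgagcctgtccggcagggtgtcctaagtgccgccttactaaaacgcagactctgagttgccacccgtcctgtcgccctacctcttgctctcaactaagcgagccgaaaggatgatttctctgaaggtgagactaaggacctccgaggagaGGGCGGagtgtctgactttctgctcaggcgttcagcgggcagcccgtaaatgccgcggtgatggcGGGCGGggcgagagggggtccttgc
The interval held GGGCGG at -90 to -85 and at -25 to -20 from the Hadhb start, and no AGGTCA on either strand.

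Shorter chains leave the membrane complex for separate matrix enzymes, and these differed less, apart from the thiolase. Echs1 (NM_053119), the short-chain enoyl-CoA hydratase, had a signal of 4640 ± 464 in fast and 7896 ± 790 in slow fibres. The slow pool was 1.62-fold higher, with a difference of 0.69 ± 0.20. Its other probe gave signals of 344 ± 34.4 and 599 ± 60.0 and a difference of 0.73, so both probes placed it within 2-fold. Hadh (NM_008212), the medium- and short-chain 3-hydroxyacyl-CoA dehydrogenase, gave 3430 ± 343 in fast and 6524 ± 652 in slow fibres. It was 1.81-fold higher in the slow pool, a difference of 0.85 ± 0.20. Compared with Hadha, which does both reactions on long chains, the difference was smaller by 0.91 for Echs1 and by 0.75 for Hadh, each beyond the combined error of 0.29.

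Acaa2 (NM_177470), the matrix thiolase that ends each turn on medium and short chains, did not share the lower values of Echs1 and Hadh. Its signal was 18363 ± 1836 in fast and 60127 ± 6013 in slow fibres. It was 3.11-fold higher in slow fibres, with a difference of 1.64. By the chosen probes this stood 0.03 below its long-chain counterpart Hadhb, well within the combined error. The other Hadhb probe, at 1.93, stood above Acaa2 by slightly more than that error. Over the 15 settings, none with the other probe alone, the gap (Hadhb minus Acaa2) ran from -0.01 to 0.16. Acaa2 exceeded Hadh by 0.78 and Echs1 by 0.94. By the chosen probes, the long-chain and shorter-chain genes therefore had like differences at the thiolase step. At the hydratase and second dehydrogenase steps they had unlike ones.

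Eci1 (NM_010023), the isomerase that moves a misplaced double bond so that unsaturated chains can continue, had a signal of 9676 ± 968 in fast and 22409 ± 2241 in slow fibres. It was 2.20-fold higher in slow fibres, with a difference of 1.14, and stood between the long-chain genes and Hadh.

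**Figure D2:**
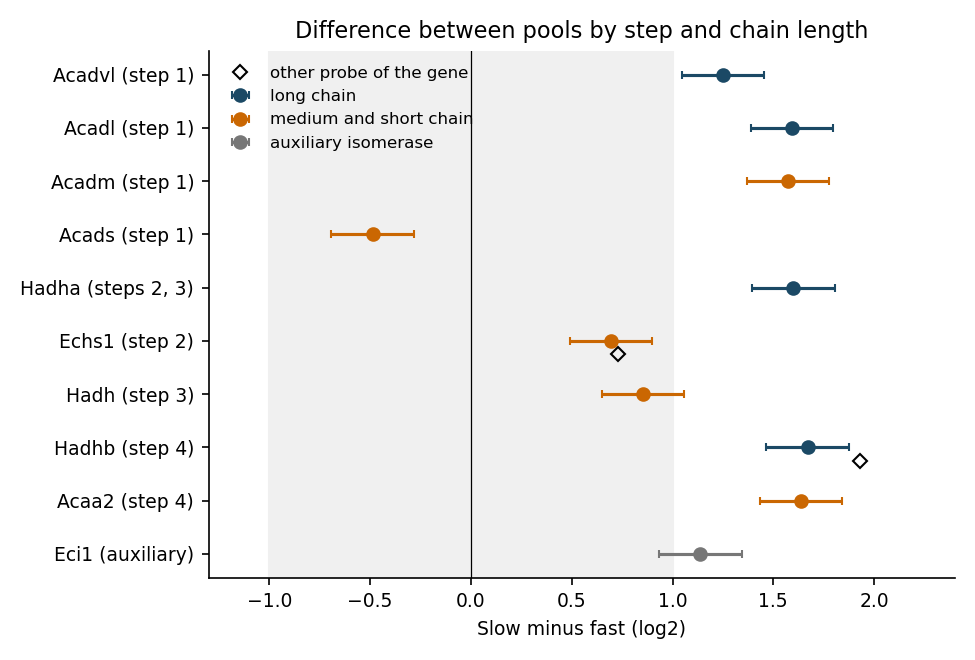
Slow minus fast difference (log2) of each enzyme, coloured by chain length, with the software error as bars; diamonds are other probes and the grey band marks differences within 2-fold. Acads, Echs1 and Hadh lie inside the band, at -0.49, 0.69 and 0.85, and the other 7 genes lie to its right.

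In order of the difference, the members ran Hadhb, Acaa2, Hadha, Acadl, Acadm, Acadvl, Eci1, Hadh, Echs1 and Acads. By the chosen probes the first 5 spanned 1.57 to 1.67 and could not be told apart at the combined error of 0.29. Of the 9 steps between neighbours in this order, only those from Acadm to Acadvl, at 0.32, and from Echs1 to Acads, at 1.18, were larger than that error. Acads, Echs1 and Hadh were the 3 lowest under each of the 15 settings, and Hadhb, Acaa2, Hadha, Acadl and Acadm the 5 highest. Among all genes measured on both arrays, 4.02% had a larger slow-fibre difference than Hadhb, 4.54% than Acadm, 6.95% than Acadvl and 8.08% than Eci1. The shares were 12.7% for Hadh and 17.3% for Echs1.

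**Figure D3:**
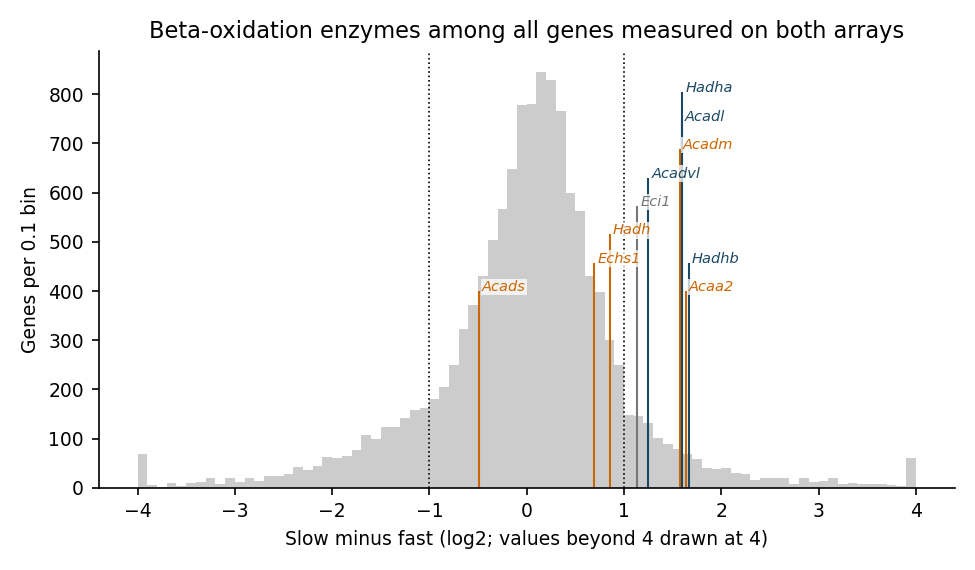
Histogram of slow minus fast differences (log2, bins of 0.1) of the 12855 genes measured on both arrays, with lines at the 10 enzymes; values beyond 4 are drawn at 4 and dotted lines mark 2-fold. The enzymes from Acadm upward lie where 4.54% or fewer of the genes are higher.

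Scaling set the level of these differences but not their order by much. Under spike-in scaling, which adds 0.39 to every difference, all members except Acads, 9 of 10, exceeded 2-fold toward the slow pool, and Acads stood at -0.09. The background was then 20.2% of genes. Under the authors' deposited table, Acads stood at -0.63, Eci1 was barely past 2-fold, and 7 of 10 members passed. At 3-fold, 4 members were past the size rule (Hadhb, Acaa2, Hadha and Acadl), against a background of 4.47%, and at 1.5-fold 9 were, against 21.2%. Toward the fast pool 0 members passed at 1.5-fold or 3-fold under the main scaling, where 20.2% and 6.14% of genes did. In the authors' deposited table, Acads at -0.63 was past 1.5-fold toward the fast pool. It was also past 1.5-fold when centred on oxidative phosphorylation genes and under loess scaling on mean signal, at -0.59 in both.

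**Figure D4:**
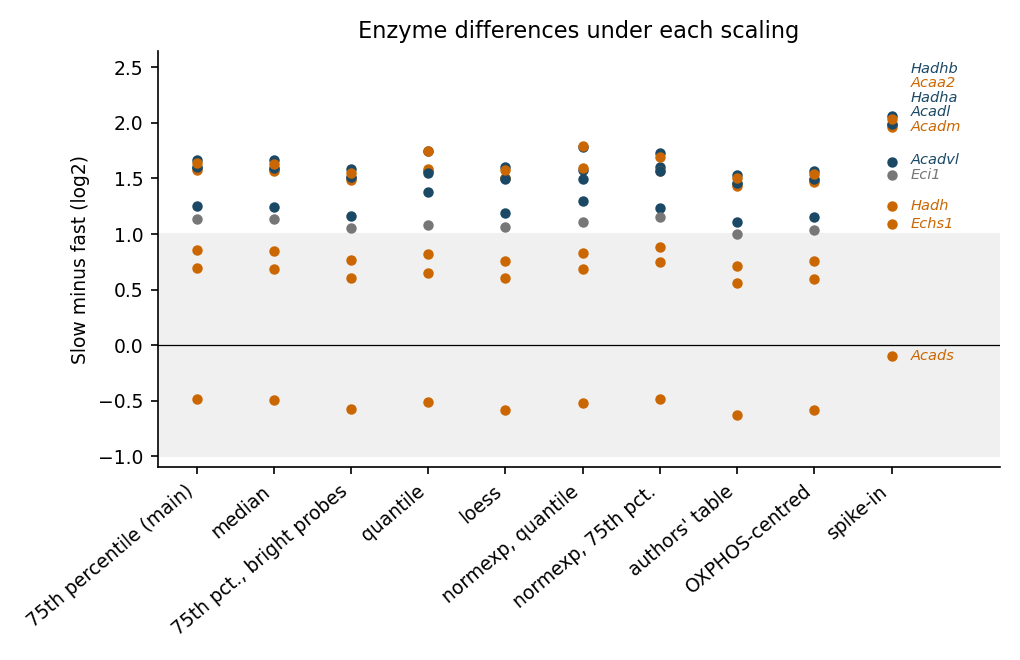
Slow minus fast difference (log2) of each enzyme under the main scaling and the 9 other scalings or background corrections, coloured by chain length as in the plot of differences by step; the grey band marks 2-fold. Acads is below 0 in every column, from -0.63 to -0.09.

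Mitochondrial genes of other pathways gave a measure for the same pools. Of 81 nuclear genes of oxidative phosphorylation with both arrays above background, 2 exceeded 2-fold toward the slow pool (Cox8a at 1.37 and Cox6a1 at 1.21, both subunits of cytochrome c oxidase) and 1 toward the fast pool (Ndufa4l2 at -1.18, but -0.67 under normexp with quantile normalization). Of all measured genes, 9.75% exceeded 2-fold toward the slow pool and 12.3% toward the fast pool. The median of the 81 genes was 0.10. It was -0.04 in the authors' deposited table, 0.25 under normexp with quantile normalization and 0.49 under spike-in scaling. Acadl, Acadm, Hadha, Hadhb and Acaa2 lay above all 81, and Acads above 2. Of 17 citric acid cycle genes, 0 exceeded 2-fold toward the slow pool. Toward the fast pool 1 did, the isocitrate dehydrogenase subunit gene Idh3a, at -1.03 (-0.63 under spike-in scaling). The list's median was 0.09. It was -0.05 in the authors' deposited table, 0.20 under normexp with quantile normalization and 0.48 under spike-in scaling. Under spike-in scaling 4 oxidative phosphorylation genes and 1 citric acid cycle gene exceeded 2-fold toward the slow pool and 0 of either toward the fast pool. The shares of all genes were then 20.2% and 7.78%. Centred on the oxidative phosphorylation genes, the median of the beta-oxidation members was 1.31, and 7 of 10 stayed past 2-fold.

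Electrons from the acyl-CoA dehydrogenases reach the respiratory chain through electron transfer flavoprotein. All 3 of its genes were higher in slow fibres. Etfdh, the ubiquinone oxidoreductase, had signals of 5102 in fast and 14081 in slow fibres, a 2.62-fold difference. Etfa, the alpha subunit, was 2.19-fold higher, with its other probes at 1.13 and 1.17 on the log2 scale, and stood at 0.995, just short of 2-fold, in the authors' deposited table. Etfb, the beta subunit, was 1.87-fold higher. So 2 of the 3 passed 2-fold, against 9.75% of all genes under the main scaling, and 1 to 3 did over the settings.

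Auxiliary and related enzymes of mitochondria were mixed. Of 9, 2 exceeded 2-fold toward the slow pool and 0 toward the fast pool, against 9.75% and 12.3% of all genes. Under spike-in scaling 3 passed toward the slow pool, against 20.2%. The median was 0.24, but 0.10 in the authors' deposited table and 0.63 under spike-in scaling. Ech1, the dienoyl-CoA isomerase, had signals of 6864 and 30554, a 4.23-fold difference and larger than that of any core member. Decr1, the dienoyl-CoA reductase that acts with it on polyunsaturated chains, was 2.34-fold higher in slow fibres. Eci2, an isomerase like Eci1, was at 0.98 by its chosen probe, just short of 2-fold, and at 0.69 by its other probe. The acyl-CoA dehydrogenase relatives had smaller values, with Acadsb, for short branched chains, at 0.24, Acad10 at 0.11, Acad12 at 0.06, Acad9, an assembly factor of complex I, at -0.20 and Acad11 at -0.60. The other Acadsb probe had the opposite sign, at -0.04. The sign of Acad9 turned under spike-in scaling, to 0.20, and those of Acad10 and Acad12 in the authors' deposited table, to -0.02 and -0.08. Hsd17b10, a matrix dehydrogenase of isoleucine breakdown, was at 0.50.

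Entry of fatty acids split by isoform. Among 10 measured activation and carnitine shuttle genes, 3 exceeded 2-fold toward the slow pool and 3 toward the fast pool, and the median was 0.59. The shares of all genes were 9.75% and 12.3%. The list's counts were 5 and 2 under spike-in scaling, against 20.2% and 7.78%. They were 2 and 3 in the authors' deposited table, against 8.09% and 14.3%. Slc25a20, the carnitine-acylcarnitine carrier, was 2.76-fold higher in slow fibres and Cpt1b, the muscle carnitine palmitoyltransferase, 2.41-fold. Acsl4, an acyl-CoA synthetase for arachidonate, was 2.91-fold higher in fast fibres. Cpt1a, the liver-type enzyme, was 2.86-fold higher there from signals of 55.9 and 20.5, but its difference of -1.52 became -0.59 under normexp with quantile normalization. Acsl5 passed background on the fast array alone, with signals of 17.6 in fast and 4.84 in slow fibres. Under the main scaling this puts it at least 2.10-fold higher in the fast pool. The limit is lower under spike-in scaling, which adds 0.39 to every difference. Cpt1c passed background on neither array. The malonyl-CoA genes Acaca, Acacb and Mlycd, which make and degrade the inhibitor of carnitine entry, lay within 2-fold at 0.63, 0.59 and 0.66, but Acaca and Mlycd passed it under spike-in scaling, at 1.02 and 1.05. The other Acacb probe gave 0.07.

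Peroxisomal beta-oxidation, which shortens very long and branched chains with separate enzymes, had smaller differences. Of 17 genes, 0 exceeded 2-fold toward the slow pool, and 1 toward the fast pool, Abcd2, a peroxisomal fatty acyl-CoA transporter, at 2.72-fold. The shares of all genes were 9.75% and 12.3%. The list's median was 0.30. Under spike-in scaling 4 genes exceeded 2-fold toward the slow pool, where 20.2% of all genes did, and 1 to 2 did toward the fast pool over the settings. Mitochondrial fatty acid synthesis, which runs similar chemistry in reverse, had 0 of 6 genes past 2-fold (2 under spike-in scaling) and a median of 0.39, with H2-Ke6 (also called Hsd17b8) farthest from 0 at 0.63. Of 4 propionate genes, which handle the end of odd chains, 1 passed 2-fold, the epimerase gene Mcee at 2.54-fold higher in slow fibres.

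Acyl-CoA thioesterases, which free fatty acids from CoA, held 1 very large difference. Of 6, 3 exceeded 2-fold toward the slow pool and 0 toward the fast pool, against 9.75% and 12.3% of all genes. Acot2, the mitochondrial enzyme, had signals of 385 and 2418, a 5.96-fold difference. Acot1, its near-identical cytosolic copy, had signals of 35.2 and 1225, a 33.1-fold difference, or 5.05 on the log2 scale, which was 3.61 under normexp with quantile normalization. Probes of these copies may share target RNA, so their values are uncertain. The third was Acot11, at 4.24-fold, which was named after its value was seen.

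**Figure D5:**
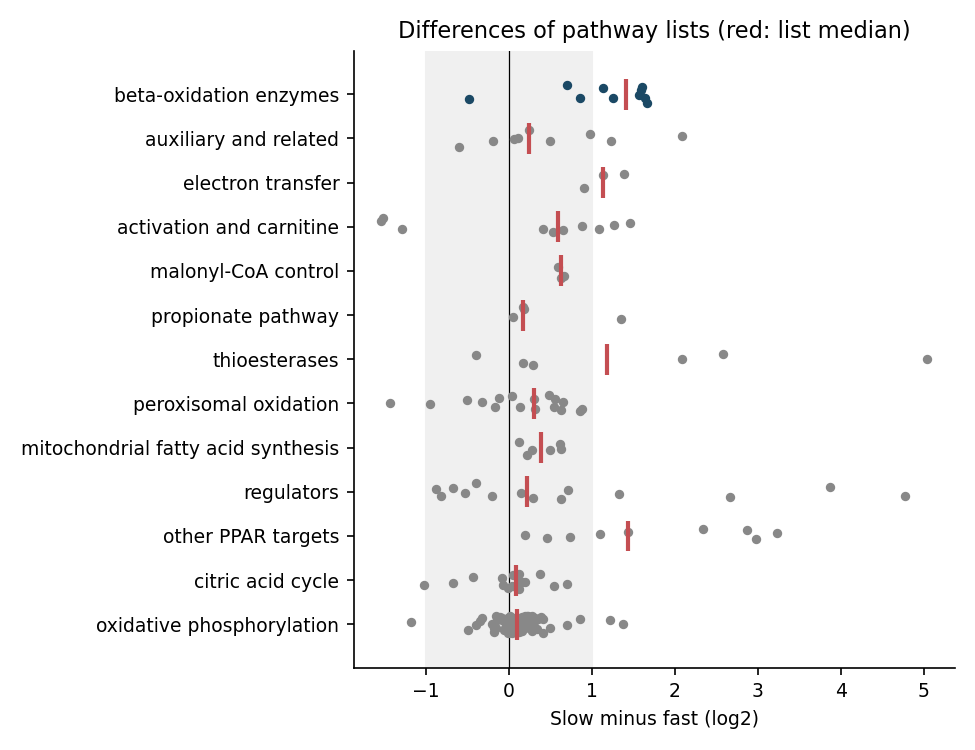
Slow minus fast differences (log2) of genes measured on both arrays in the beta-oxidation set and 12 further gene lists; each point is a gene, red bars are list medians and the grey band marks 2-fold. The beta-oxidation median of 1.41 and the median of 1.44 of other PPAR targets stand beside 0.09 for the citric acid cycle and 0.10 for oxidative phosphorylation.

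Among 14 known regulators of these genes, 4 exceeded 2-fold toward the slow pool, against 9.75% of all genes. Toward the fast pool 0 did, against 12.3%, and the median was 0.22. Under spike-in scaling 6 passed toward the slow pool, against 20.2% of all genes. Lpin1, a coactivator of PPAR alpha, passed toward the fast pool in the authors' deposited table, at -1.01. Of the 14, 6 were below 0, the lowest being Lpin1 at -0.88, Rxra, the partner receptor of PPAR, at -0.82 and Ppargc1a, the PGC-1 alpha coactivator, at -0.68, which were named after their values were seen. Esrrb and Esrrg, nuclear receptors of the ERR family, were highest, at 4.77 and 3.87, the former at 4.09 under normexp with quantile normalization. The others, named after their values were seen, were Ppara, the fatty acid receptor, at 2.67, and Perm1, a muscle partner of the PGC-1 and ERR factors, at 1.33. Among 9 other measured PPAR target genes, 6 exceeded 2-fold toward the slow pool, led by Angptl4, a secreted inhibitor of lipoprotein lipase, at 3.23 and Lpl, that lipase, at 2.98.

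Markers of most other cell types were lower in the slow pool, where most of the enzymes were higher. Of all measured genes, 12.3% exceeded 2-fold toward the fast pool and 9.75% toward the slow pool. Summed over 8 endothelial markers, the signal in multiples of the array's 75th percentile was 30.4 in fast and 7.40 in slow fibres, and 7 of 8 exceeded 2-fold toward the fast pool. The sums were 233 and 58.2 for 7 fibroblast markers, of which all 6 that were measured exceeded 2-fold toward the fast pool. They were 140 and 53.3 for 4 erythrocyte markers (4 of 4), 23.8 and 6.35 for 5 immune markers (2 of 3), and 6.67 and 1.98 for 4 Schwann cell markers (4 of 4). Cd68 made up 19.3 and 4.45 of the immune sums, so that they mostly describe that gene. The immune markers Ptprc and Adgre1 failed the background test in both pools. Csf1r was at -0.89 by its chosen probe but at 0.45 by its other probe, whereas the other Cd68 probe kept its sign, at -2.25. Over 5 smooth muscle and pericyte markers the sums were 1163 and 1079. The probe of Acta2, smooth muscle actin, made up 1152 and 1073 of them, so that they mostly describe that probe. It had signals of 139689 and 136890, whereas Myh11 had 34.2 and 23.5. Whether the Acta2 probe also read RNA of other actin genes was not tested. Of the other 4 markers, Rgs5 was at -1.59, Pdgfrb at -1.05, Myh11 at -0.61 and Cspg4 at 1.27. Past 2-fold were 2 of 5 toward the fast pool and 1 toward the slow pool. The part of these cells in the values of the enzymes was not tested. Of 5 white fat markers, Adipoq, Plin1, Retn and Cidec failed to stand well above background on both arrays, as did Ucp1 of brown fat. The fifth, Lep, was above background on both, with signals of 46.9 (fast) and 58.1 (slow) and a difference of 0.24. Of the other brown fat markers, named after their values were seen, Zic1 was 7.52-fold higher in fast and Cidea, which also acts on lipid droplets, 13.6-fold higher in slow fibres.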

How the data were processed

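Per the file headers, the authors quantified the scans in version 12.0.3.1 of Agilent Feature Extraction. The deposited processed signal is a spot intensity on a linear scale, background-subtracted and detrended within the array but not normalized between arrays, and the other columns used were its software error, median spot and background intensities, and other 0 or 1 flags, per the file headers. A value table deposited by the authors holds intensities on a linear scale, equal to the processed signal times 2.83 (fast) and 2.45 (slow), with column medians of 30.1 and 27.1, no log and no centring; what the factors scale to is unknown.

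Control spots and 159 outlier spots were left out, and repeated spots were averaged as log2 values. The main value was log2 processed signal minus the array's 75th percentile over 56596 probes. Spot accessions, stripped of versions, were looked up in a RefSeq table of GRCm38.p6 (59.7% of probes), used for names because the array design refers to mm9. The brightest probe of a gene, among those well above background on at least 1 array, was used. A gene counted as measured where both arrays had that probe well above background. For a probe dim on 1 array, the fold is a lower limit: the dim side was raised to that array's lowest well-above-background signal where it lay under it. With 1 array per group a 2-fold size rule replaced a test. The genes and lists were chosen with earlier results of these data known. Named are all members, and of each pathway list the 2 highest and 2 lowest past 2-fold, or the farthest from 0 with none past 2-fold; of the auxiliary, electron transfer and malonyl-CoA lists every gene. The calculation was tested on simulated data. Python 3.11.15, R 4.3.3 and limma 3.58.1 were used. Alternatives changed the scaling, the background correction (normexp, offset 50), the values, the probe, the dim-probe filter, outlier spots and the size rule.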

Additional observations from a re-analysis of the deposited data

How the results depend on the processing

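No paired analysis was possible because each group has 1 array, and for the same reason no array could be left out. Of 14 alternatives in scaling, background, probe choice and filter, 13 moved the median of the members, of the long-chain genes and of the medium- and short-chain genes by less than the software error, and 1, spike-in scaling, moved them by more, to 1.81, 1.99 and 1.25. The number of members past 2-fold toward the slow pool was 7 under 13 of them and 9 under spike-in scaling, and 4 at a size rule of 3-fold. The lowest values of the 3 medians, 1.27, 1.46 and 0.72, came from the authors' deposited table. No member changed sign under an alternative. Of all genes past 2-fold, 44.2% were higher in the slow pool, 72.2% under spike-in scaling, which moved the median of all genes by 0.39, and 36.2% in the authors' deposited table, which moved it by -0.14; centring on oxidative phosphorylation genes moved it by -0.10 and dropping the dim-probe filter by 0.10. The numbers of genes past 2-fold, 1254 in slow and 1583 in fast fibres, were 714 and 920 under normexp with quantile normalization, 758 and 881 under normexp with the 75th percentile, 2603 and 1000 under spike-in scaling, and 2553 and 2996 with no filter. Neither repeated spots nor the software error covers the spread between animals, dissections or labelling reactions.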
